A study of Mus musculus with 12 samples.

Results

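Egr3 and Egr4 are members of the early growth response family of zinc finger transcription factors. They were described here in the hippocampus of mice given kainate or saline. Members were chosen by symbol: every probe set that the platform annotation of the array (array C of the MG-U74 set) assigns to Egr3 or Egr4. These are 2 genes of 5928 named by a single symbol on the array, and they are read by 4 probe sets, 2 for each gene. A probe set was tested if its log2 signal reached 4 or more on 3 or more of the 12 arrays, and 3 of the 4 met that filter. Each of the 3 lay above that level on all 12 arrays, so none passed through its kainate arrays alone.

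Total hippocampal RNA was measured on 12 arrays in 4 groups of 3. The groups were control mice with saline, control mice with kainate, mutant mice with saline and mutant mice with kainate. The mutants lacked the transcription factors CREB and CREM, per the title of the series. The sources used here do not give the alleles, the promoter driving any recombinase or the strain. All mice were littermates of both sexes, 5 to 6 weeks old and kept in single cages. Handling for 5 days is recorded for every sample. Kainate was injected intraperitoneally at 20 mg/kg, and the animals were killed 1 hour after the injection. Each array holds pooled RNA from 3 animals. The p-values therefore measure the spread between pools, not between single animals. Values are GCRMA summaries on the log2 scale, so a difference of 1 stands for a doubling of the signal.

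Kainate is an agonist of the kainate type of glutamate receptor and drives hippocampal neurons into seizure activity. Egr genes are immediate early genes: neuronal firing switches on their transcription within minutes, through factors already present in the cell. Serum response factor with its ternary complex partners, and CREB, are the best known of these factors. The EGR proteins bind a GC-rich element with their zinc fingers, and NAB proteins act as co-repressors on them. In the brain Egr3 is known for its part in synaptic plasticity and memory, and Egr4 is the most divergent member of the family.

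Some arrays stood apart. Mutant kainate replicate 3 had an SD over probe sets of 1.52, against 1.71 to 1.78 on the other 11 arrays. The actin 3' minus 5' control signal, a measure of RNA quality, moved with kainate in opposite directions in replicate 1 (it fell by 0.27) and in replicates 2 and 3 (0.52 higher). Values within replicate 1 and within replicates 2 and 3 are therefore given beside the pooled ones. On 50 probe sets chosen on the saline arrays for parting the genotypes, control kainate replicate 3 was nearer the mutant saline mean on 30, and control kainate replicates 1 and 2 on 8 and 12. The mutant kainate arrays were nearer it on 27, 37 and 39. Gfap, an astrocyte filament gene, read 12.95 on control kainate replicate 3 and 11.51 and 11.53 on the other control kainate arrays. In mutant mice after kainate Gfap read 12.82 in replicate 1, 13.03 in replicate 2 and only 11.55 in replicate 3. On Gfap each replicate 3 kainate array was thus nearer to replicates 1 and 2 of the other genotype. On the 50 probe sets mutant kainate replicate 3, at 39, did not lean towards the controls. Whether the labels of these arrays were exchanged was not tested. The arrays are kept as labelled, and results are also given for the 10 arrays left without control kainate replicate 3 and mutant kainate replicate 3, with replicate 1 against the rest as a block.

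On the probe sets that met the filter, Egr3 and Egr4 read higher after kainate in both genotypes. Averaged over the genotypes, Egr3 rose 3.11-fold on its brighter probe set and was past the threshold. Egr4 read 3.58-fold higher on average and was not past the threshold. That value rests on a single probe set, 138503_r_at, as the other Egr4 probe set was far below the filter on every array. The size of the kainate difference was not distinguishable between control and mutant mice for either gene. The intervals were wide, most of all for Egr4 and for the dimmer Egr3 probe set, so an equal response is not shown. Neither gene passed the threshold between the genotypes at rest or after kainate.

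**Figure D1:**
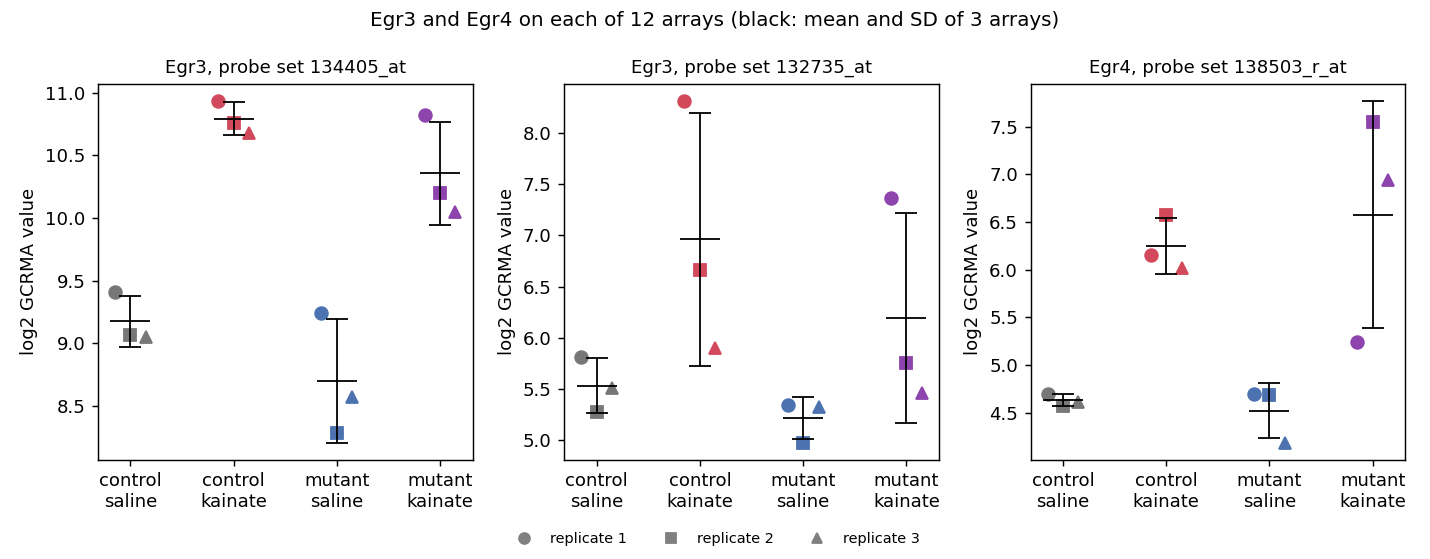
Log2 GCRMA value (y axis) of the 3 Egr3 and Egr4 probe sets above the dim filter, on each array of the 4 groups (x axis). Symbols mark the replicate number, and black bars give the mean and SD of 3 arrays. For Egr3 134405_at and Egr4 138503_r_at all 6 kainate arrays lie above all 6 saline arrays, while Egr3 132735_at spreads from 5.46 to 8.31 after kainate.

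The brighter Egr3 probe set, 134405_at, gave 9.41, 9.07 and 9.05 on the control saline arrays (replicates 1, 2 and 3). On the control kainate arrays it gave 10.94, 10.76 and 10.68. The lowest kainate array lay 1.27 above the highest saline array, and the kainate arrays were close to each other. The means were 9.18 ± 0.20 (SD, n = 3) and 10.79 ± 0.13 (SD, n = 3), a difference of 1.61 ± 0.26 (SE of the limma fit, 95% interval 1.03 to 2.20), or 3.06-fold. Over all 3541 probe sets tested this did not pass at an adjusted p of 0.05 (limma adjusted p = 0.102). Only 1 probe set was called in this comparison, which is 0.0282% of those tested, and it belongs to Kcnj2. All 3 of the measured Egr3 and Egr4 probe sets had no overlap between kainate and saline in control mice, against 6.02% of all probe sets tested with every kainate array higher. By size of rise Egr3 134405_at stood 6th of 3541.

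In control mice replicate 1 alone gave an Egr3 difference of 1.53 and the other replicates 1.66. Arrays of the same number deviated together in control mice, and with the replicate number as a block Egr3 134405_at passed (limma adjusted p = 0.0113). The number of probe sets called then went from 1 to 3. It also passed in the fit of the 10 arrays (1.59 ± 0.16, limma adjusted p = 0.0227) and in the fit of the control arrays alone (limma adjusted p = 0.0309). The call in control mice therefore depends on how the spread between arrays is modelled. The size of the difference ran from 1.54 to 1.73 over 20 alternatives, but many of these could not change it. Other filters, an intensity trend, a block with all arrays kept, the control arrays alone and leaving out a mutant array keep the same control means. The size could move with quantile normalization (1.65), in the fit of the 10 arrays (1.59) and on leaving out a control array (1.54 to 1.73).

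In mutant mice Egr3 134405_at gave 9.24, 8.28 and 8.57 after saline. After kainate it gave 10.82, 10.20 and 10.05. The groups did not overlap, although both spread more widely than in control mice. The means were 8.70 ± 0.49 (SD, n = 3) and 10.36 ± 0.41 (SD, n = 3), a difference of 1.66 ± 0.26 (95% interval 1.07 to 2.25), or 3.15-fold (limma adjusted p = 0.104). Here too 0.0282% of the probe sets tested were called, again Kcnj2 alone. The 3 measured Egr probe sets were each free of overlap in mutant mice, against 1.67% of all probe sets with every kainate array higher. Replicate 1 alone gave 1.58 and the other replicates 1.70. It passed in the fit of 10 arrays (1.73 ± 0.16, limma adjusted p = 0.0128) and without mutant kainate replicate 1 (1.43, limma adjusted p = 0.0328). In the fit of the mutant arrays alone it did not pass (1.66 ± 0.33, limma adjusted p = 0.843).

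Averaged over the genotypes, the rise of Egr3 134405_at was 1.64 ± 0.19 (95% interval 1.22 to 2.05, n = 6 arrays against 6), higher on 6 of 6 kainate arrays (limma adjusted p = 0.00704). It was 1 of 5 probe sets called, 0.141% of those tested. The lowest kainate array lay 0.64 above the highest saline array, whichever genotype each came from. Of the 3541 probe sets 0.395% had every kainate array above every saline array. Replicate 1 alone gave 1.55 and the other replicates 1.68. It stayed past the threshold in each of the 19 alternatives run, at 1.52 to 1.77 and adjusted p from 0.000273 to 0.0377.

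**Figure D2:**
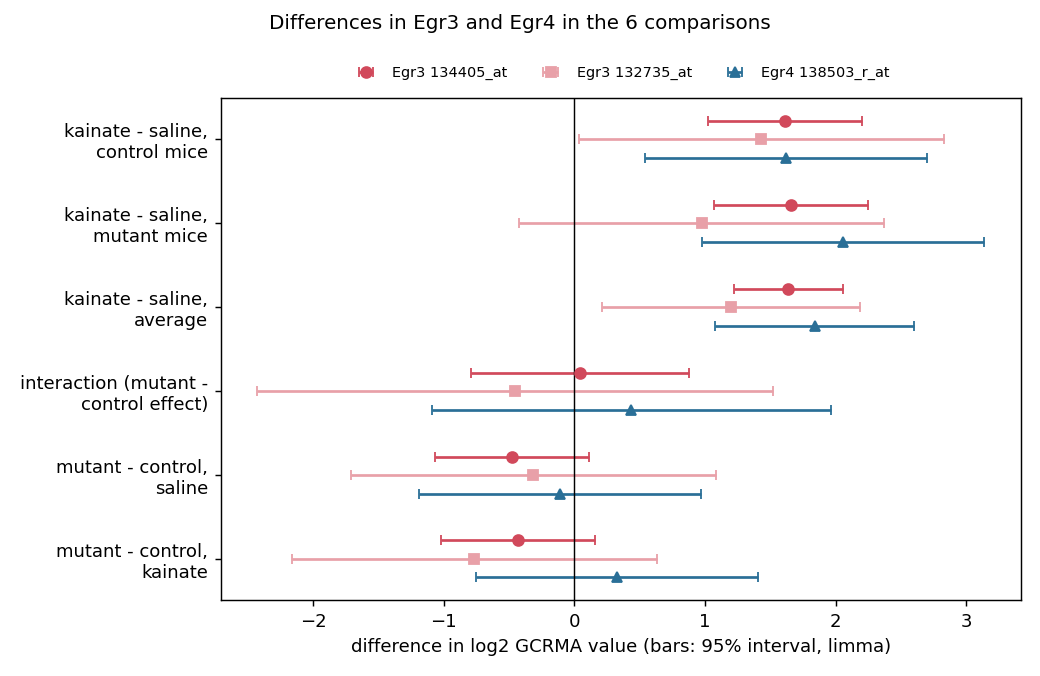
Difference in log2 GCRMA value (x axis) of the 3 Egr3 and Egr4 probe sets in the 6 comparisons (y axis), with 95% intervals from limma. The kainate differences lie between 0.97 and 2.06, and every interval of the interaction and of both genotype comparisons includes 0.

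The other Egr3 probe set, 132735_at, gave a less even response. In control mice it read 5.81, 5.28 and 5.51 after saline and 8.31, 6.67 and 5.90 after kainate. Replicate 1 was the highest kainate array, and replicate 3 lay 0.09 above the highest saline array. The difference was 1.43 ± 0.62 (95% interval 0.03 to 2.82, limma adjusted p = 1.00). Replicate 1 alone gave 2.50 and the other replicates 0.89. In mutant mice it read 5.35, 4.98 and 5.33 after saline and 7.36, 5.76 and 5.46 after kainate. The same order of replicates appeared there, with 2.01 within replicate 1 and 0.45 within replicates 2 and 3, and 0.97 ± 0.62 in all (95% interval -0.42 to 2.37). Averaged over the genotypes 132735_at was 1.20 ± 0.44 higher (limma adjusted p = 0.362), with 4 of 6 kainate arrays above every saline array. It was called in none of the 19 alternatives for that average. Leaving out 1 array moved it from 0.75 (without control kainate replicate 1) to 1.96 (without control kainate replicate 3) in control mice. In mutant mice it moved from 0.39 (without mutant kainate replicate 1) to 1.34 (without mutant kainate replicate 3).

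Between arrays of the same number the Egr3 probe sets gave the same direction and different sizes. In mutant mice the shared number only sets 2 arrays side by side, since the same-numbered arrays of replicates 2 and 3 did not deviate together there. Kainate minus saline was 1.48 to 1.92 on 134405_at over the 6 differences. On 132735_at it was 0.13 to 2.50. Both probe sets are annotated to Egr3 through different accessions, and which part of the transcript each reads was not examined here. Over the 12 arrays they correlated at a Pearson r of 0.79 and a Spearman rho of 0.92. The arrays share treatment groups and replicate numbers, so these coefficients are a description of the same 12 arrays.

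**Figure D3:**
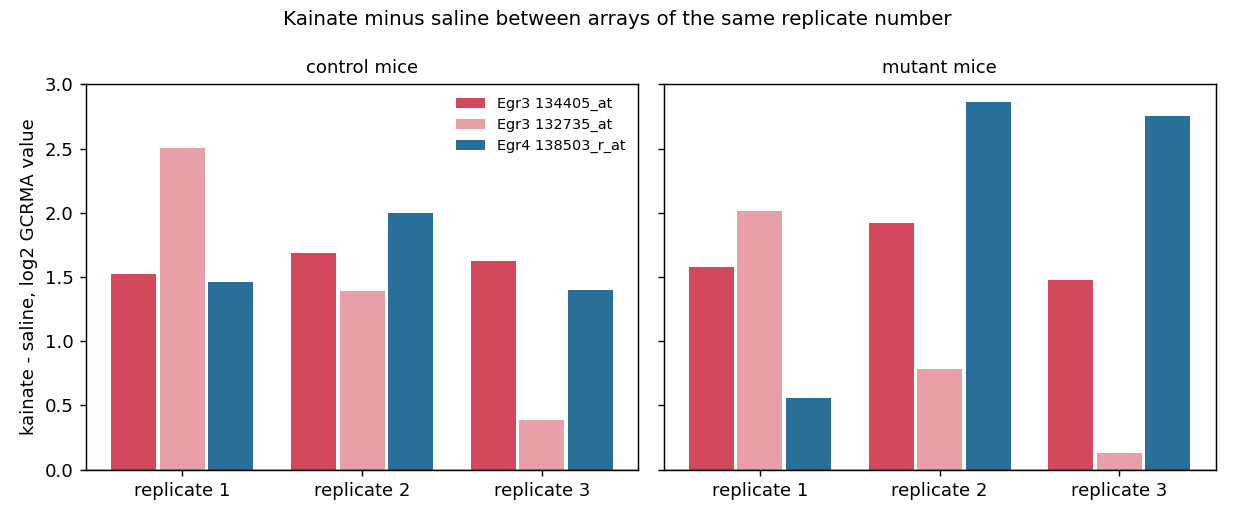
Kainate minus saline in log2 GCRMA value (y axis) between arrays of the same replicate number (x axis), in control mice (left) and mutant mice (right), for each measured probe set. Egr3 134405_at is even at 1.48 to 1.92, Egr3 132735_at ranges between 0.13 and 2.50, and Egr4 in mutant mice is 0.55 in replicate 1 and 2.86 and 2.75 in replicates 2 and 3.

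Egr4 was read by 138503_r_at and by 139185_at. The latter gave 0.58 to 0.65 over the 12 arrays, far below the dim level of 4, and no value for Egr4 is taken from it. On 138503_r_at the control saline arrays gave 4.70, 4.58 and 4.62. The control kainate arrays gave 6.16, 6.58 and 6.02. The groups were 1.32 apart at their nearest arrays. Their means were 4.63 ± 0.06 (SD, n = 3) and 6.25 ± 0.29 (SD, n = 3), a difference of 1.62 ± 0.48 (95% interval 0.54 to 2.70), or 3.07-fold (limma adjusted p = 1.00 over all probe sets). It was the 5th largest rise of 3541. The replicate 1 arrays gave 1.46 and the others 1.70.

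In mutant mice Egr4 gave 4.69, 4.69 and 4.19 after saline. After kainate it gave 5.25, 7.55 and 6.94. All 3 kainate arrays lay above the saline arrays, the nearest by 0.55, and the kainate arrays had the widest spread of Egr4 in the 4 groups. The means were 4.52 ± 0.29 (SD, n = 3) and 6.58 ± 1.19 (SD, n = 3), a difference of 2.06 ± 0.48 (95% interval 0.98 to 3.14), or 4.16-fold (limma adjusted p = 0.579). By size it was the 3rd largest rise of 3541. From replicate 1 the difference was 0.55, and from the others 2.81.

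Averaged over the genotypes Egr4 was 1.84 ± 0.34 higher after kainate (95% interval 1.07 to 2.60, limma adjusted p = 0.158), with 6 of 6 kainate arrays above every saline array. Replicate 1 alone gave 1.01 and the other replicates 2.25. On the average and in mutant mice the call turned on a single array. Without mutant kainate replicate 1 Egr4 passed on the average (2.17, limma adjusted p = 0.000799), in mutant mice (2.72, limma adjusted p = 0.00641) and in control mice (1.62, limma adjusted p = 0.0377). That array is not part of the control difference, which stayed at 1.62 while its SE went from 0.48 to 0.21. In control mice Egr4 also passed, just under the threshold, in the fit of the control arrays alone. Without that array 56 probe sets were called on the average and 67 in mutant mice, against 5 and 1 with it. The part in the Egr4 difference of the actin signal, which was 0.52 higher after kainate in replicates 2 and 3 and fell by 0.27 in replicate 1, was not tested.

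The promoter of Egr4 is shown because the mutants lack CREB and CREM, which bind the cAMP response element (CRE). Of the 2 genes, 1 matched an entry of the RefSeq promoter table (assembly GRCm38.p6). The window covers chr6:85513540-85513839 on the minus strand, 250 bases before to 50 after the annotated start of Egr4, and is written in the direction of the gene. Capitals mark the CRE core (TGACG on either strand, here read as CGTCA) and the TATAA of a TATA box.
Egr4: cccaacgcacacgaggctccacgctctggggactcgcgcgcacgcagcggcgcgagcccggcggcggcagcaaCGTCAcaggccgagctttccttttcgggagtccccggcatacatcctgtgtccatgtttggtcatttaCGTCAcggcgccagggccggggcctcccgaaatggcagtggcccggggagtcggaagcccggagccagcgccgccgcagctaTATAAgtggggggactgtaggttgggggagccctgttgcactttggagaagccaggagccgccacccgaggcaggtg
The CRE core occurred at 2 places, starting 177 and 109 bases before the start site, and TATAA once, starting 27 bases before it. A CRE core was held by 20.8% of the 32851 promoter windows of this length, and at least 2 by 5.01%. TATAA in the direction of the gene was held by 17.5%. The full palindrome TGACGTCA was not in this window (1.79% of all windows hold it), nor was the EGR element GCGNGGGCG on either strand (5.55%). An exact CArG box, the element bound by serum response factor, was also absent (1.63%). It was searched as CCWWWWWWGG, with W for A or T, and looser forms of it were not searched. The G and C content was 67.7%, against a median of 52.7% over all windows. These are letter matches only, and the array says nothing of which factor was bound.

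The kainate difference was then compared between the genotypes. For Egr3 134405_at the interaction, the mutant difference minus the control difference, was 0.04 ± 0.37 (limma adjusted p = 0.990). Its 95% interval ran from -0.79 to 0.88, which as a ratio of the mutant to the control fold change is 0.578 to 1.84. Replicate 1 alone gave 0.05 and the other replicates 0.04. For Egr3 132735_at it was -0.45 ± 0.88 (95% interval -2.43 to 1.52). For Egr4 it was 0.44 ± 0.68 (95% interval -1.09 to 1.96, limma adjusted p = 0.973), while replicate 1 alone gave -0.90 and the other replicates 1.11. It was 0.14 ± 0.75 in the fit of 10 arrays. The Egr4 values of replicate 1 and of the others point in opposite directions, so no direction is read from the pooled one. Of the 3541 probe sets 0 (0%) were called for the interaction by limma, and 31 had an unadjusted p under 0.05.

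**Figure D4:**
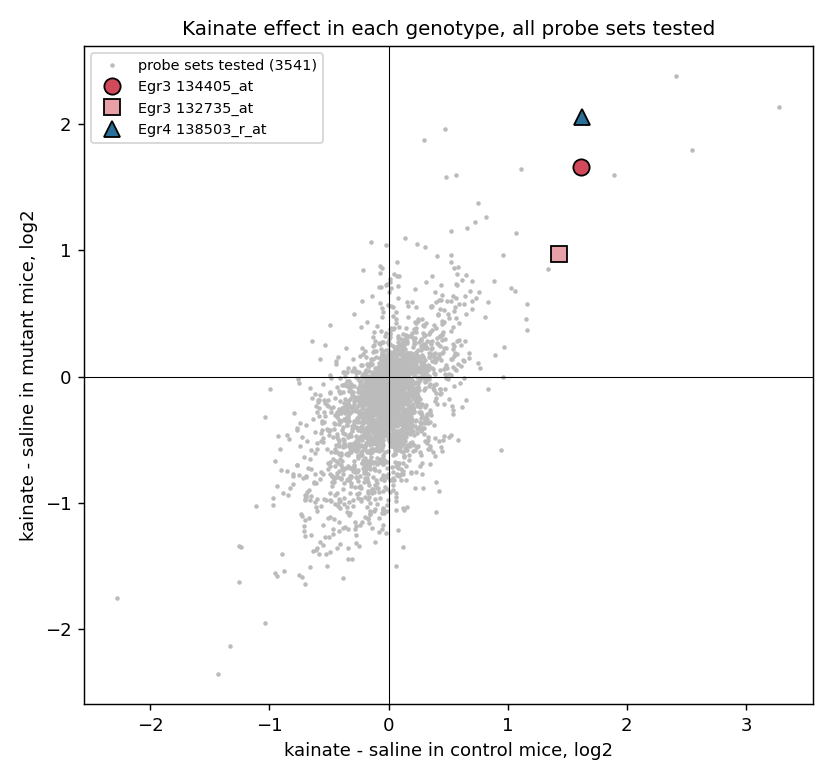
Kainate minus saline in log2 GCRMA value in control mice (x axis) and in mutant mice (y axis) for the 3541 probe sets tested (grey points). The Egr3 and Egr4 probe sets are marked. Each lies at 0.97 or more on both axes, away from the bulk of the probe sets around 0.

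The groups of the 2 genotypes overlapped at rest and after kainate, and no genotype difference of Egr3 or Egr4 passed the threshold. On Egr3 134405_at the mutant minus control difference after saline was -0.48 ± 0.26 (95% interval -1.07 to 0.11, limma adjusted p = 0.518). After kainate it was -0.43 ± 0.26 (95% interval -1.02 to 0.16, limma adjusted p = 0.550). In each case 2 of 3 mutant arrays lay below every control array. The replicate 1 arrays of both genotypes lay close together, at differences of -0.17 after saline and -0.11 after kainate, against -0.63 and -0.59 within replicates 2 and 3. With the replicate number as a block, which ties the genotypes here, the SE was 0.15 in each case (limma adjusted p = 0.542 after saline and after kainate). The fit of 10 arrays gave -0.48 ± 0.14 after saline, with a 95% interval of -0.81 to -0.15 that leaves out 0 (limma adjusted p = 0.274 over all probe sets). After kainate it gave -0.33 ± 0.17 (95% interval -0.74 to 0.07). With quantile normalization of all 12 arrays the differences were -0.44 ± 0.23 after saline and -0.25 ± 0.23 after kainate.

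On Egr3 132735_at the differences were -0.31 ± 0.62 after saline and -0.77 ± 0.62 after kainate. Single arrays moved both. After kainate the value ran from -1.35 without mutant kainate replicate 1 to -0.09 without control kainate replicate 1. After saline it ran from -0.44 without control saline replicate 2 to -0.17 without control saline replicate 1. Between arrays of the same number the mutant read lower in 6 of 6 pairs on each Egr3 probe set, with differences of -0.78 to -0.11 on 134405_at and -0.95 to -0.18 on 132735_at. Both probe sets read the same RNA pools, so these are not separate samples. The share of all probe sets tested with 6 of 6 pairs lower was not counted, so no genotype difference is read from this.

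For Egr4 the genotype difference was -0.11 ± 0.48 after saline (95% interval -1.19 to 0.97) and 0.33 ± 0.48 after kainate (95% interval -0.75 to 1.41). After kainate 2 mutant arrays lay above every control array and 1 below. No measured Egr probe set had all mutant arrays below all control arrays, against 5.11% of probe sets after saline and 3.78% after kainate. By limma 0 of 3541 probe sets (0%) were called in either genotype comparison, with 428 and 167 at an unadjusted p under 0.05.

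Ordered by mean level, Egr3 134405_at was highest in control kainate, followed by mutant kainate, control saline and mutant saline. Control kainate and mutant kainate overlapped, as did control saline and mutant saline, while the lowest mutant kainate array lay above the highest control saline array. Egr4 was highest in mutant kainate, then control kainate, control saline and mutant saline, with the same overlaps. Egr3 132735_at had the order of 134405_at, but each group overlapped with its neighbours. In RNA of whole hippocampus a change in the number of expressing cells and a change in RNA per cell cannot be told apart.

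Egr3 and Egr4 were compared with each other and with the other probe sets over the 12 arrays. Egr4 correlated with Egr3 134405_at at a Pearson r of 0.71 (Spearman rho 0.75), and stood 60th of 3540 in likeness to it. On the 10 arrays the r was 0.73. The genes most like Egr3 134405_at by Pearson r were Apold1 (0.91), Sik1 (0.89), Kcnj2 (0.89), Gm13889 (0.87) and Mustn1 (0.86). Of these, Apold1 is an early response gene of endothelial cells, Sik1 encodes a salt-inducible kinase and Kcnj2 an inward-rectifier potassium channel. Apold1, Sik1, Kcnj2 and Gm13889 were the 4 other probe sets called on the averaged kainate difference, and Mustn1 was not called (0.62 ± 0.15, limma adjusted p = 0.343). The Gm13889 probe set read below the dim level on every saline array and passed the filter through its kainate arrays alone. No weight is therefore put on its call or its place here. Apold1 alone kept its place among the first 5 on the 10 arrays, where the r was 0.93.

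The genes most like Egr4 were Gm13889 (r = 0.92), Fcsk (0.90), Gm33581 (0.89), Pla2g7 (0.87) and Grb14 (0.87). Fcsk encodes a fucose kinase, Pla2g7 a secreted phospholipase that cleaves platelet-activating factor, and Grb14 an adaptor of receptor tyrosine kinases. Apart from Gm13889 none of them was called on the averaged kainate difference, which ran from 0.25 for Pla2g7 to 0.74 for Grb14. In replicate 1 Grb14 read 7.70 (control) and 7.68 (mutant) after kainate, against 7.77 and 7.79 after saline. Fcsk read 6.92 and 6.96 there, against 6.98 and 6.98. In replicates 2 and 3 Grb14 read 8.42 to 9.31 after kainate. Gm33581 lay at 3.86 to 4.44, close to the dim level. The part of the actin signal in these differences was not tested. Of the 5, Gm13889 and Pla2g7 were also among the first 5 on the 10 arrays. Gm13889 was the 1 gene on the lists of both Egr3 and Egr4. Since it passed the filter through its kainate arrays alone, no shared pattern is read from this. All of these coefficients rest on 12 arrays that share 4 groups and the replicate numbers.

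**Figure D5:**
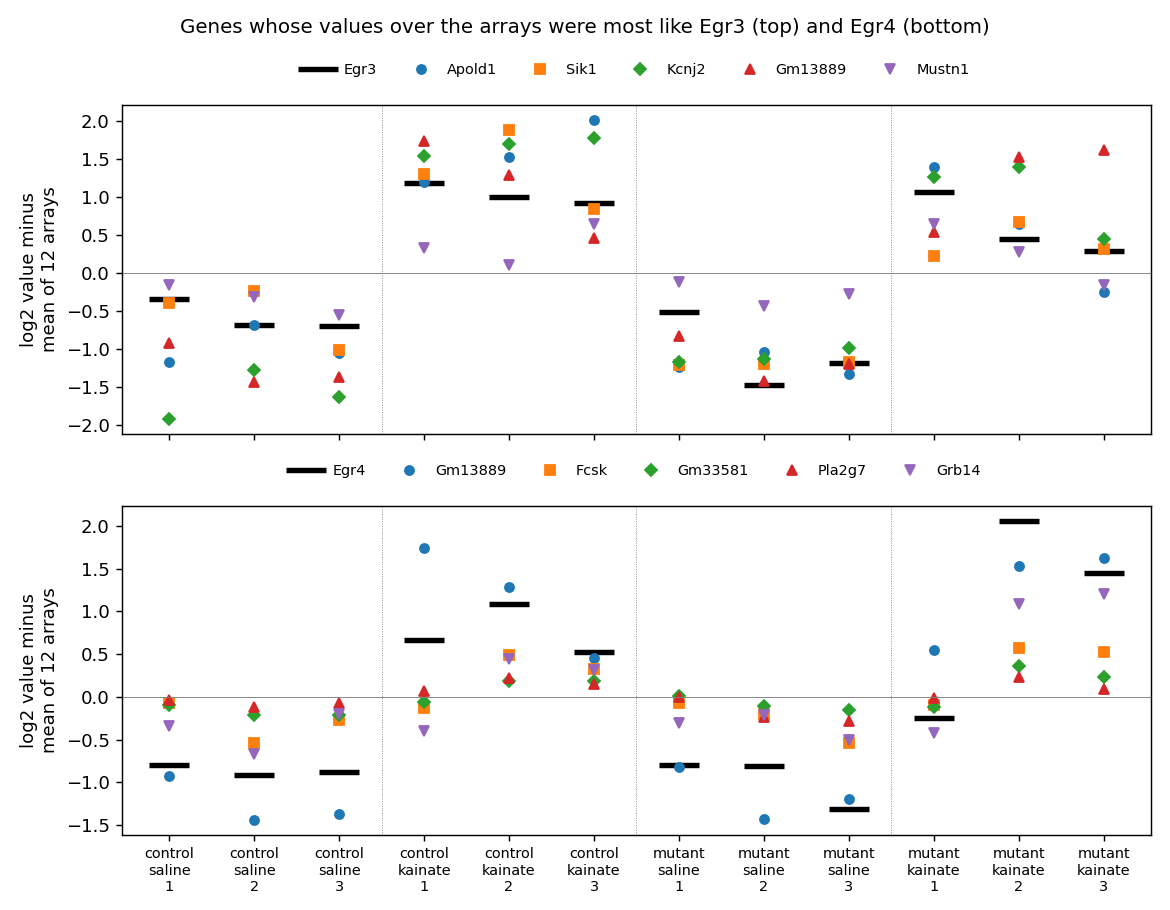
Log2 GCRMA value minus the mean of 12 arrays (y axis) on each array (x axis; dotted lines part the groups) for Egr3 134405_at (top, black bars) and Egr4 138503_r_at (bottom, black bars) with the 5 genes most correlated with each. Apold1, Sik1, Kcnj2 and Gm13889 lie above their means on the control kainate arrays with Egr3, and the genes beside Egr4 other than Gm13889 move over a narrower range than Egr4.

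Few relatives of Egr3 and Egr4 could be read on this array. Of 7 genes on the list of the EGR family and its co-repressors, 3 were on the array and 2 measured, Egr3 and Egr4 themselves. Nab1, a co-repressor of EGR proteins, read 3.79 to 4.21 and did not pass the filter. Of 47 other activity-induced transcription factors 7 were on the array and 4 measured, Jun, Crem, Tsc22d1 and Tsc22d2. On the averaged kainate difference 0 of the 4 were called, with a median of -0.03 against -0.04 over all probe sets tested. Jun, a subunit of AP-1, differed by 0.04 ± 0.04 at a level of 3.99 to 4.27, close to the dim level. Tsc22d2, a leucine zipper gene, differed by -0.37 ± 0.29. Nr4a3, an orphan nuclear receptor gene induced by activity, was below the filter at 2.59 to 3.31.

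The factors that act upstream of Egr genes were read in 10 of 42 cases and 0 were called, against 0.141% of all probe sets tested. Their median averaged kainate difference was -0.07, against -0.04 over all. Elk1, a ternary complex factor that partners serum response factor, was the largest at -0.80 ± 0.32 (limma adjusted p = 0.384). It read 6.07 to 6.60 on the control kainate arrays and 4.15 on mutant kainate replicate 3, the array of narrow spread. The CREB co-activators Crtc1 and Crtc3 differed by 0.39 ± 0.16 and -0.34 ± 0.10, and Creb1 by -0.07 ± 0.06. Camkk2, a calcium-dependent kinase, differed by -0.21 ± 0.80 on its brighter probe set, which read 6.36 to 9.42. None of these was past the threshold (limma adjusted p from 0.349 to 0.948). The mutant minus control difference of Creb1 was 0.12 ± 0.08 after saline and 0.05 ± 0.08 after kainate. For Crem it was 0.245 ± 0.08 and 0.10 ± 0.08. The measured probe sets of these genes thus did not read lower in the mutants. They lay close to the dim level, at 4.77 to 5.11 for Creb1 and 4.37 to 4.83 for Crem. The other Creb1 and Crem probe sets were below the filter. Whether the measured ones read the part of the transcript changed in the mutants was not examined.

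Genes described as bound or regulated by EGR3 or EGR4 were measured in 5 of 15 cases, and 0 were called, against 0.141% of all. Their median averaged kainate difference was -0.19 against -0.04 over all, and 1 of 5 was above 0 against 31.6% of all probe sets tested. Gabra4, which encodes a GABA receptor subunit that Egr3 is known to regulate, differed by -0.61 ± 0.27 (limma adjusted p = 0.435). Slc12a5, which encodes the neuronal potassium-chloride cotransporter and is a described target of Egr4, differed by -0.19 ± 0.16. Syn1 and Syn2, genes of synaptic vesicle proteins, differed by 0.51 ± 0.14 and -0.31 ± 0.08, and the 2 dimmer Syn2 probe sets by -0.07 ± 0.20 and 0.04 ± 0.04. Arc, an activity-induced gene of dendrites, was below the filter. Its signal was 2.87 to 2.97 on the control saline and mutant saline arrays. It was 3.97, 2.98 and 4.72 on the control kainate arrays and 5.23, 3.49 and 3.08 on the mutant kainate arrays.

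Markers of the tissue were sparse as well. Of the 5 neuronal markers Syn1 alone was on the array, and it was above the filter on every array. Of 15 markers of dentate gyrus, CA1 and CA3 cells, 3 were on the array and 1, Cpne4, passed the filter, at 4.31 to 4.69, so the hippocampal fields could not be checked. For choroid plexus and ependyma 2 of 6 markers were on the array and both were below the filter. Of 6 markers of neighbouring regions 1 was on the array, Slc17a6, and it was above the filter. It read 8.11 to 8.31 in control saline, 7.93 to 8.58 in control kainate, 7.37 to 8.02 in mutant saline and 7.16 to 8.22 in mutant kainate. Markers were also measured for interneurons (2 of 5), microglia (3 of 6) and endothelium and pericytes (1 of 6), and none was called. For astrocytes 2 of 7 were measured, Gfap and Apoe, with summed levels of 10.77 to 11.60 in control saline, 11.51 to 12.96 in control kainate, 12.23 to 13.01 in mutant saline and 11.56 to 13.04 in mutant kainate. The saline ranges of the genotypes did not overlap for this sum, with the mutants higher, and no astrocyte marker was called. Such a gap was common, as 1027 of the 3541 probe sets tested had every mutant saline array above every control saline array. The part of the astrocyte signal in the kainate differences of Egr3 and Egr4 was not tested.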

How the data were processed

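The deposited table holds log2 values of 11934 probe sets on 12 arrays, made by the authors with GCRMA in R 2.4.1, per the submitters' processing notes. GCRMA adjusts background by probe sequence, normalizes across arrays and summarises each probe set. Its version is not given in the sources used here. Dim signals shrink towards a floor in such values, so differences near the dim level are uncertain. The number of arrays limits the precision.

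The values were used as deposited. The 66 control probe sets were dropped. Of the other 11868, 3541 (29.8%) reached a log2 signal of 4 on 3 or more arrays and were tested. Symbols came from the platform annotation (7717 probe sets with 1 symbol, 150 with several, 4001 with none). All 12 arrays entered a limma 3.58.1 fit (R 4.3.3) with 4 group means, 8 residual degrees of freedom and no block. The 6 comparisons were adjusted by Benjamini-Hochberg over the 3541 probe sets each, with a threshold of 0.05. Gene lists are described by counts and medians, reading each gene from its brightest probe set.

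Named are every Egr3 and Egr4 probe set, list members past the threshold, up to 4 members of a list with the largest averaged kainate difference, and the 5 genes most correlated with each member over the 12 arrays. Nab1, Nr4a3, Arc, Creb1, Gfap and Slc17a6, outside these limits, were named after their values were seen. The members and lists were chosen with earlier results of these data known.

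Same-numbered arrays deviated together from their group means in control mice (kainate against saline, correlations of 0.627, 0.383 and 0.458) and between genotypes after saline (0.855, 0.470 and 0.482) and after kainate (0.578, 0.333 and 0.190). In mutant mice they were 0.479, 0.0448 and -0.0779, so the numbers were not taken as pairs there. Alternatives changed the filter, normalization, block, samples and spread estimate.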

Additional observations from a re-analysis of the deposited data

How the results depend on the processing

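Of 354 values of the 3 measured probe sets under an alternative, 332 kept their direction and side of the threshold, 13 passed where the chosen setting did not, and 9 changed sign, all of them interaction or genotype differences that were not past the threshold. The cause of these changes was not tested. Settings that alter only the filter, block or spread estimate keep the group means, as does leaving out an array outside the comparison. Their values could change side of the threshold but not direction, so the 332 does not measure how stable the directions are. In control mice Egr3 134405_at passed at 1.61 with the replicate block, with replicate 1 against the rest as a block, and with only the arrays compared, and at 1.59 with that second block and 10 arrays. Egr4 passed at 1.62 with only the control arrays (just under the threshold) and without mutant kainate replicate 1, over a leave-one-out range of 1.46 to 1.74. In mutant mice Egr3 134405_at passed at 1.66 with either block, 1.73 with 10 arrays and 1.84 after quantile normalization, and without mutant kainate replicate 1, over a leave-one-out range of 1.43 to 1.93. The leave-one-out ranges of Egr4 were 1.57 to 2.72 in mutant mice and 1.60 to 2.17 on the average. Sign changes came on leaving out 1 array. The interaction ranged from -1.04 to 0.22 for Egr3 132735_at, from -0.19 to 0.31 for Egr3 134405_at, where 5 arrays turned it (-0.07, -0.01, -0.17, -0.02 and -0.19), and from -0.05 (-0.048 without mutant kainate replicate 2) to 1.10 for Egr4. The Egr4 genotype difference ranged from -0.19 to 0.059 after saline and from -0.16 to 0.99 after kainate.

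Counts of probe sets called moved more. In control mice they were 3 with the stricter filter, 2 after quantile normalization, 3 with the replicate block, 2 with the second block, 7 with 10 arrays, 4 with an intensity trend, 6 with the control arrays alone and 1 to 4 leaving out 1 array. In mutant mice they were 0 without a filter or with the mutant arrays alone, 4, 2, 2 and 5 with quantile normalization, the replicate block, the second block and 10 arrays, and 0 to 67 leaving out 1 array. With 10 arrays 6 were called for genotype after saline, 4 after kainate and 20 for averaged kainate, where quantile normalization gave 9. Leaving out mutant kainate replicate 1 gave the highest leave-one-out counts, 15 for genotype after kainate and 56 for averaged kainate, against lowest counts of 0 and 5. The replicate block changed no other call of Egr3 or Egr4.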
